A study of Mus musculus with 3 samples.

Results

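On chromosome 2, 424 substitutions outside olfactory and vomeronasal receptor genes were on at least 0.8 of reads in all 3 haploid ESC lines studied. Of these, 408 lay within a stretch of 17.37 Mb, in blocks parted by spaces of 2.84 Mb and 4.11 Mb that held none of the 424. The 424 substitutions fell into 93 gene entries, among them Fam171b, Lrp4, Frzb, Mybpc3 and Itgav. By the authors' annotation 120 of them changed an amino acid, but 50 of these 120 lay in a coding exon of the RefSeq gene models of the same genome. These 50 included a changed start codon in Agps, which encodes a peroxisomal enzyme of ether lipid synthesis, and another in Mybpc3, the cardiac myosin-binding protein C.

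The positions were selected on their measured values and not by a comparison of lines. A position of the deposited table of exonic single-nucleotide variants was taken where at least 10 reads covered it and at least 0.8 of the reads with either base carried the alternate base, in each of the 3 lines. Genes named Olfr or Vmn, which encode olfactory and vomeronasal receptors, were left out. The whole table lists 11544 positions with a 1-base substitution, 1085 of them on chromosome 2. Outside receptor genes, 9696 positions of the table had enough reads in all 3 lines and 3765 of these (38.8%) met the rule. On chromosome 2, 424 of 603 did (70.3%). Since these values made the choice, the shares of alternate reads below are a description. A substitution that met the rule is called fixed here.

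The lines were derived from androgenetic haploid ESCs, which carry a paternal genome only, of strain C57BL/6, and were grown in 2i/Lif medium. O48 (WT, passage 40) lacks the H19 and IG differentially methylated regions, and both other lines share these deletions. ΔDSM-O48-1 (Dmpk, Six5 and Mbnl1 knockout, passage 60) was made by CRISPR/Cas9 from ΔDmpk-O48-1, a Dmpk knockout clone of O48, and ΔDSMD-O48-2 (Dmwd knockout in addition, passage 70) was made from ΔDSM-O48-1. Both knockout lines are single clones. Each line has 1 sequenced library, so no spread between cultures can be given, and since the lines descend from each other, a substitution seen in all 3 was not measured 3 independent times. The study sequenced these genomes to look for off-target changes of the knockout guides.

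A haploid genome holds a single copy of each locus, so that an inherited difference from the reference is expected in every read that covers it. The mouse reference genome was built from C57BL/6J. Inbred substrains and stocks that carry a stretch of another strain's chromosome differ from it in runs of neighbouring positions. A changed base in a coding exon may leave the residue as it was (synonymous), replace it (nonsynonymous), or make or remove a start or stop codon. A base in an untranslated region (UTR) leaves the protein sequence as it was.

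The changes that touch a start codon, a stop codon or a shared codon are shown first, because their effect can be read off the sequence directly. For shared codons it can differ from the effect printed in the table. Substitutions are written as the reference base on the plus strand, the position on chromosome 2 of GRCm38.p6, and the alternate base. Sequences were read from that genome in the direction of the gene. For each, the reference comes first and is followed by the same window with the fixed substitutions put in, and capitals mark the codon concerned. The Agps start codon lies at the beginning of chr2:75832213-75832242 (plus strand, coding exon), and A75832213T turned ATG into TTG (M1L).
Agps start, reference: ATGgtcgcgcggggcgccgctctgagtgac
Agps start, lines: TTGgtcgcgcggggcgccgctctgagtgac
The substitution was on 26 of 26 reads in O48, 23 of 23 in ΔDSM-O48-1 and 16 of 16 in ΔDSMD-O48-2. The next ATG in the same frame is codon 27 of the 671-residue protein, so 26 residues precede it.

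The Mybpc3 start codon opens chr2:91118169-91118198 (plus strand, coding exon). G91118171A turned ATG into ATA (M1I), and the next ATG in frame lies inside the same window, at codon 9 of 1278.
Mybpc3 start, reference: ATGcctggtgtgactgttctcaagatgccg
Mybpc3 start, lines: ATAcctggtgtgactgttctcaagatgccg
It was on 27 of 27 reads in O48, 29 of 29 in ΔDSM-O48-1 and 28 of 28 in ΔDSMD-O48-2. Translation of either gene was not measured, and whether protein is made from TTG, ATA or a later ATG cannot be read from DNA.

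In 6 codons 2 fixed substitutions fell in the same triplet (12 substitutions), and the table gives an effect for each base alone. At all 12 positions every read of every line carried the alternate base, so the lines hold the codon with both changes, provided that the reads come from this locus. In Dusp19, which encodes a dual-specificity phosphatase, the table lists G218R (G80631020C) and G218D (G80631021A). With both changes the codon GGT reads CAT, which is G218H. Codon 218 is close to the end of the 220-residue protein, and the stop codon closes the window chr2:80631008-80631031 (plus strand, coding exon).
Dusp19, reference: gaggacacgaccGGTggtctgtga
Dusp19, lines: gaggacacgaccCATggtctgtga
Depth at both positions was 33 reads for O48, 53 for ΔDSM-O48-1 and 32 for ΔDSMD-O48-2.

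In Gm19948, a gene entry of the table that overlaps the pseudogene Gm40020 in RefSeq, the window chr2:85899809-85899835 (minus strand) holds 5 fixed substitutions in 3 codons.
Gm19948 codons 241 to 249, reference: GGGgagAAGccctatgcatgtaacCAA
Gm19948 codons 241 to 249, lines: TGAgagTAGccctatgcatgtaacTGA
The table lists a synonymous change at G241 (C85899833T) and G241W (C85899835A). Read together they turn GGG into TGA, a stop codon (G241*), which neither makes alone. T85899829A (K243*) turns AAG into TAG, on 10 of 10 reads in O48, 11 of 11 in ΔDSM-O48-1 and 14 of 14 in ΔDSMD-O48-2. T85899810C (Q249R) and G85899811A (Q249*) turn CAA into TGA, again a stop, with 12, 15 and 16 reads in the same order of lines. The 10 reads of O48 at codons 241 and 243 are the lowest depth among the 424 positions. In the reading frame of the table the lines thus hold 3 stop codons within 27 bases where the table marks 2.

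The 3 other shared codons lie in entries without a RefSeq coding exon at that place. Codon 234 of entry id29246 reads CTT in place of ACT (T234L, listed as T234P and T234I). Codon 21 of Gm13720 reads TGG in place of CTG (L21W, listed as L21R and as synonymous), and codon 208 of id29556 reads ACA in place of ATG (M208T, listed as M208I and M208T). In 4 of the 6 codons the effect of both bases together is listed for neither base, and in the other 2, Q249* and M208T, it is that listed for 1 of them.

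The remaining stop changes of the table also lie in noncoding genes. T84501014A (*188Y, id29556) removes a stop codon in chr2:84501002-84501028 (minus strand), an exon of the long noncoding RNA (lncRNA) gene Gm13710.
id29556 codon 188, reference: taatgagtgtggTAActgtgtgatgcg
id29556 codon 188, lines: taatgagtgtggTATctgtgtgatgcg
It was on 46 of 46, 38 of 38 and 39 of 39 reads in O48, ΔDSM-O48-1 and ΔDSMD-O48-2. C92409378T (Q163*, id31165) makes a stop codon in chr2:92409366-92409392 (plus strand), an exon of the lncRNA gene D930015M05Rik.
id31165 codon 163, reference: ctctccactgtgCAGatggccactgtt
id31165 codon 163, lines: ctctccactgtgTAGatggccactgtt
It was on 20 of 20, 31 of 31 and 32 of 32 reads. Of the 6 stop or start changes in the table, only the Agps and Mybpc3 start codons lie in a RefSeq coding exon.

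The fixed positions were then placed along the chromosome. A block was a run of at least 5 positions with at most 2 Mb between neighbours. There were 4 blocks, 10 positions lay in none of them, and 358 of the 424 (84.4%) lay between 80 and 95 Mb. The longest block, chr2:79342427-86325644 (6.98 Mb), held 248 positions in 39 entries. It began in Cerkl, a relative of ceramide kinase, and ended in the pseudogene Gm13719. A second block, chr2:90433484-93203212 (2.77 Mb), held 136 positions in 35 entries from Ptprj, a receptor tyrosine phosphatase, to Tspan18, a tetraspanin. The block before the longest, chr2:75832213-76499355 (0.67 Mb), held 24 positions in 8 entries from Agps to Osbpl6, an oxysterol-binding protein relative. The fourth, chr2:122681709-122682079, was 371 bp of the 3′ UTR of the zinc transporter gene Slc30a4 with 6 positions.

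The space between the second and the longest block, 4.11 Mb, held no fixed position outside receptor genes, but it holds only 37.7 kb of non-receptor exon and 250 fixed positions in 68 receptor genes. The longest block itself held another 127 in 39 receptor genes. With receptor genes kept, these 2 blocks became a single one, chr2:79342427-93203212 (13.86 Mb) with 761 fixed positions, so the split between them comes from leaving those genes out. The space between the Agps block and the longest block was of another kind. Its 2.84 Mb hold 253.1 kb of exon, among them the 107.4 kb of Ttn, the giant sarcomere protein titin, and no fixed position. The only usable positions there were 6 in the 3′ UTR of Osbpl6, none of them fixed. The table lists variant sites only, so that a gene without entries may match the reference or may lack reads.

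**Figure D1:**
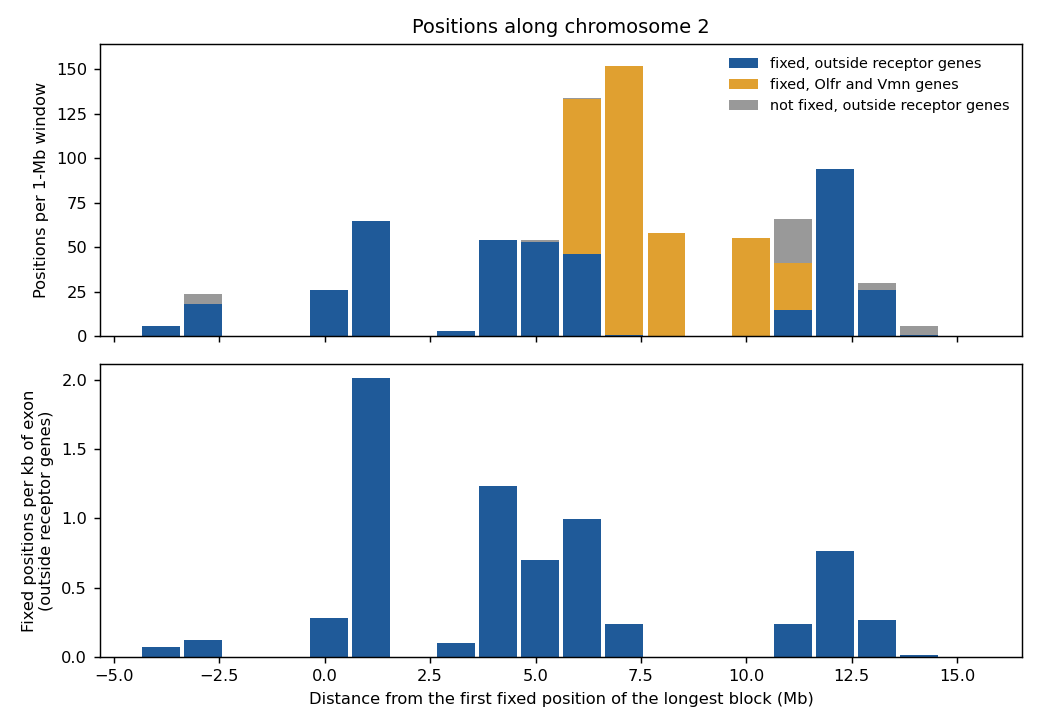
Upper panel, positions with enough reads in each 1-Mb window of chromosome 2 against the distance in Mb of the window's start from the first fixed position of the longest block: blue, fixed outside receptor genes; orange, fixed in Olfr and Vmn genes; grey, not fixed outside receptor genes. Lower panel, fixed positions outside receptor genes per kb of non-receptor exon in the same windows, where the window with most positions per kb reaches 2.01. In the upper panel orange bars lie in the space between the blue groups and on top of blue bars beside it.

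Per kb of exon the longest block held 0.912 fixed positions, the block from Ptprj to Tspan18 0.473 and the block from Agps to Osbpl6 0.686. The rest of the chromosome held far fewer. Before the first limit there were 2 positions in 3607.8 kb of exon (0.000554 per kb), and after the last limit 14 in 5094.9 kb (0.00275 per kb), of which 6 were those of Slc30a4. The nearest fixed position before the first limit was in the 3′ UTR of Zeb2, 30.84 Mb away, and the nearest after the last was in Fbxo3, 10.86 Mb away. Other listed positions came closer, the nearest in Hoxd4 before the stretch and in Cd82 after it.

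Within the 17.37 Mb the positions were clustered. The median distance between neighbours was 294 bp, and 149 of 407 distances were at most 100 bp. The 3 longest distances were the 2 spaces between blocks and 1.6 Mb between Nup35 and Zfp804a, where the window from 81 to 82 Mb holds no non-receptor exon. RefSeq has 112 protein-coding genes outside the receptor families in the stretch, and 67 of them held a fixed position. All 8 genes of the Agps block did, as did 30 of 42 in the longest block and 29 of 48 in the block from Ptprj to Tspan18. The genes without any included P2rx3, a purinergic receptor with 7.1 kb of exon, and Prdm11 with 17.5 kb.

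The 10 positions outside all blocks were single positions spread over the chromosome. 3 of them changed a residue in RefSeq. They were A335T in Dhtkd1, a mitochondrial dehydrogenase subunit, D415N in the F-box gene Fbxo3, and G1218R in Ralgapb, a subunit of the Ral GTPase-activating complex. The table numbers the last 2 as D445N and G1202R. Another, in id32952, lies in the lncRNA gene Gm13985. The other 6 lay in the UTRs of Zeb2, Srxn1, Rem1, 3230401D17Rik, Ncoa3 and Polr3k. Every read carried the alternate base at all 10, and the lowest depth in any line lay between 22 and 35.

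Of the 93 gene entries, 32 held 1 fixed position and 61 held more. The 13 entries with 10 or more held 213 of the 424 positions. Fam171b, a membrane protein gene, led with 32 positions over 68.4 kb, of which 20 were in the 3′ UTR, 11 synonymous and 1 nonsynonymous (G62E). Its depth ran from 18 to 43 reads in O48, from 17 to 50 in ΔDSM-O48-1 and from 18 to 46 in ΔDSMD-O48-2. At 30 of the 32 positions no read of any line carried the reference base, and at the other 2 a single read of ΔDSM-O48-1 did.

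Lrp4, which encodes the agrin receptor of the neuromuscular junction, held 28 positions over 35.3 kb. In the 3′ UTR there were 20, 6 were synonymous, and V1249L and H1396D changed residues. Depth ran from 14 to 49 in O48, from 16 to 49 in ΔDSM-O48-1 and from 22 to 43 in ΔDSMD-O48-2. A single reference read was seen, in ΔDSMD-O48-2. Frzb, a secreted antagonist of Wnt signalling, held 19 over 6.4 kb, 16 of them in the 3′ UTR, with A321V near the end of a 323-residue protein. Mybpc3 held 15 over 18.3 kb, with 9 synonymous changes and, beside the start codon, S80G, G118E and T699A. All reads at its 15 positions carried the alternate base, at 20 to 37 reads in O48, 20 to 41 in ΔDSM-O48-1 and 15 to 34 in ΔDSMD-O48-2.

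The other 2 of the 6 entries with most positions were not RefSeq protein-coding genes. Gm19948 held 26 positions in 1.6 kb, 22 of them called amino acid changes. RefSeq places 18 of the 26 in the pseudogene Gm40020 and 8 outside any gene. Entry id29246 held 15 in 3.5 kb, 13 of them called amino acid changes, and all 15 lie in an intron of Cerkl in RefSeq. Pseudogenes resemble other genes, and reads of near-identical copies can be placed at either copy. The table does not say how such reads were placed, and the values of Gm19948 are uncertain for that reason. Whether id29246 has near-identical copies was not tested, so its values are uncertain as well. Median depth was 24, 26 and 22.5 reads in Gm19948 and 26, 26 and 29 in id29246 (O48, ΔDSM-O48-1, ΔDSMD-O48-2), beside 31, 32 and 31 over all 424 positions. Depth alone does not show which copy a read came from, and the placing of reads was not tested.

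**Figure D2:**
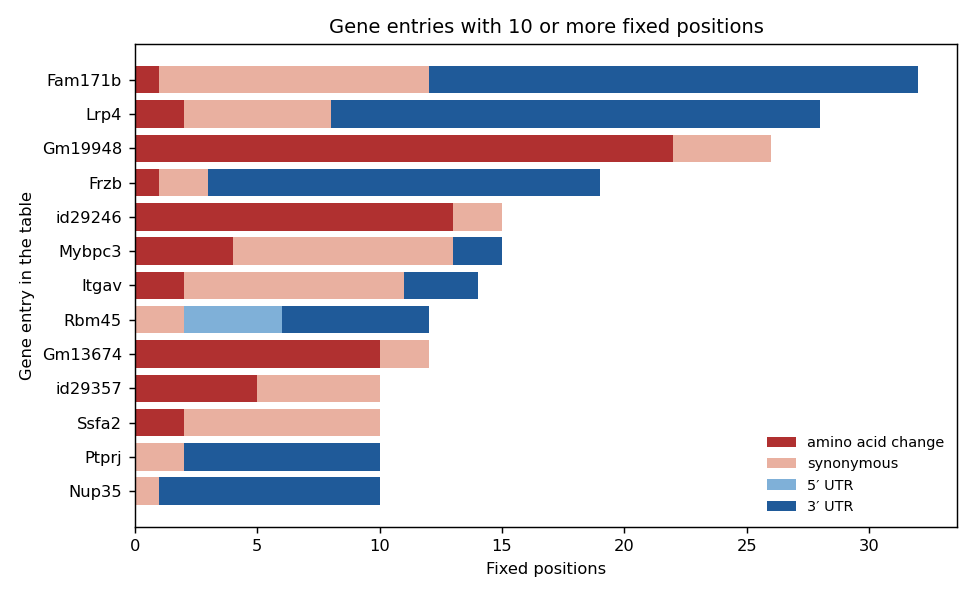
Number of fixed positions (horizontal axis) in each gene entry of the table with 10 or more, split by the table's effect: amino acid change, synonymous (stop codons included), 5′ UTR (start-gained changes included) and 3′ UTR. Fam171b (32), Lrp4 (28) and Frzb (19) hold mostly 3′ UTR changes, and Gm19948 (26) and id29246 (15) mostly changes called amino acid changes.

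Per kb of RefSeq exon the order among protein-coding genes was another. Timm10, a chaperone of mitochondrial protein import, held 8 positions in 0.7 kb (12 per kb). Among these genes Frzb followed with 6.51, the RNA-binding protein gene Rbm45 with 6.24, Fam171b with 5.41 and Clp1, an RNA kinase, with 4.33. The pseudogenes Gm13720, Gm40020 and Gm13674 were denser than Timm10. These are densities of listed fixed positions, with no counting of covered bases without a variant.

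By the authors' annotation, 143 of the 424 positions (33.7%) lay in a 3′ UTR, 122 (28.8%) were synonymous, 114 (26.9%) nonsynonymous and 28 in a 5′ UTR. Another 6 were called as making a start codon upstream of a gene's own, each base taken alone. Of these, C76370044T and G76370045T in Rbm45 adjoin each other and the fixed position C76370043T, so the lines hold these changes together. The remaining 11 were 3 stop codons gained, 1 stop codon lost, 2 start codon changes, 2 synonymous changes of a stop codon and 3 intragenic positions. The 120 amino acid changes lay in 47 entries.

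The same positions were placed on the RefSeq annotation of GRCm38.p6. Of the 120 amino acid changes, 50 (41.7%) lay in a RefSeq coding exon, in 32 genes. Another 31 lay in exons of pseudogenes, 2 in a transcribed pseudogene, 13 in lncRNA exons, 13 in the Cerkl intron, 9 outside genes and 2 in untranslated exons. For fixed positions of the other chromosomes the table's amino acid changes lay in a RefSeq coding exon in 508 of 986 (51.5%). All 143 3′ UTR positions lay in untranslated exons in RefSeq as well. Of the 50, 45 had the same change in at least 1 RefSeq transcript. The other 5 were 2 in Arhgap1 (as entry id30820), 2 in Pex16 (as id31092) and Fsip2, where the table gives N2610K and RefSeq N2628K. By RefSeq, 47 positions in 32 genes changed a residue, 2 of them start codons and none a stop codon, and 101 were synonymous.

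**Figure D3:**
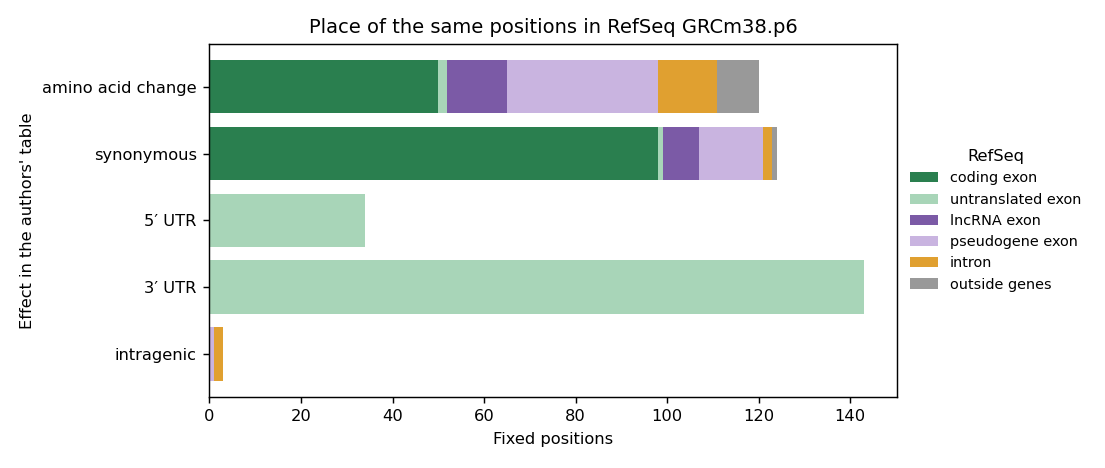
Number of fixed positions (horizontal axis) by the effect in the authors' table (vertical axis), coloured by where RefSeq GRCm38.p6 places the same position. Of the 120 amino acid changes 50 are in coding exons, of the 124 synonymous changes 98 are, and the 143 3′ UTR positions are all in untranslated exons.

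Of the 47 positions that change a residue in RefSeq, each base taken alone, 2 share codon 218 of Dusp19 (G218H together). At 46 of the 47 positions the alternate base was on every read of all 3 lines. The exception was P351A of Tnks1bp1, a tankyrase-binding protein, with 1 reference read of 30 in ΔDSMD-O48-2. The lowest depth in any line ranged from 16 reads (Agps) to 36. Similarity of the exchanged residues was scored with BLOSUM62, a matrix in which low scores mark exchanges that are rare between related proteins. Of the 114 nonsynonymous changes in the table, 15 had the lowest score seen, -3, and 5 of these lay in RefSeq coding exons. They were C301R of Cerkl, C291R of Serping1, D29Y of Ube2l6, R401W of Smtnl1 and C522R of the zinc finger gene Zfp408. The windows of the first 4 follow, because their read values are given in full.
Cerkl codon 301, reference: ggcaagcttcttTGCtttgggttctca
Cerkl codon 301, lines: ggcaagcttcttCGCtttgggttctca
Serping1 codon 291, reference: ccttctgacaccTGCctcgtccttctc
Serping1 codon 291, lines: ccttctgacaccCGCctcgtccttctc
Ube2l6 codon 29, reference: ctgtctagtgacGATgccaatgtgctt
Ube2l6 codon 29, lines: ctgtctagtgacTATgccaatgtgctt
Smtnl1 codon 401, reference: ccagcaaagcgcCGGcacaacttcacc
Smtnl1 codon 401, lines: ccagcaaagcgcTGGcacaacttcacc
These windows are chr2:79342413-79342439 (minus strand), chr2:84770112-84770138 (minus strand), chr2:84802824-84802850 (plus strand) and chr2:84815311-84815337 (minus strand).

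Cerkl A79342427G, the first position of the longest block, was on 27 of 27 reads in O48, 31 of 31 in ΔDSM-O48-1 and 26 of 26 in ΔDSMD-O48-2. Serping1, which encodes the inhibitor of complement C1, carried A84770126G on 30 of 30, 41 of 41 and 31 of 31 reads. Ube2l6, a conjugating enzyme for the ubiquitin-like modifier of the interferon response, carried G84802836T on 30 of 30, 33 of 33 and 31 of 31. Smtnl1, a smoothelin-like protein of muscle, carried G84815325A on 34 of 34, 32 of 32 and 35 of 35, and a second change, I30T. All 4 were therefore without a reference read in any line.

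The other entries with a score of -3 that were read out in full lay in noncoding sequence by RefSeq. They were N69I, C91R, P190L, P207L and R457C of id29246 (Cerkl intron), V267G of Gm13674 and R189W of Gm13688 (pseudogenes) and C418R of Gm19948 (Gm40020). Their depth ran from 16 reads (N69I in O48) to 49 (R457C in ΔDSMD-O48-2), and all their reads carried the alternate base.

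The remaining RefSeq residue changes are grouped here by what the proteins do. Among enzymes and signalling proteins were A499T of the phosphodiesterase Pde11a, N131S of the lysosomal phosphatase Acp2 and N481D of Arfgap2, which acts on the ARF GTPases of vesicle transport (N467D in the table). Proteins of degradation and autophagy held T9A in Psmc3, an ATPase of the proteasome, I310V in the ubiquitin ligase adaptor Kbtbd4 (I294V in the table) and R1139Q in Ambra1. Cell surface proteins held A872G and A921S in Itgav, the integrin alpha V chain, beside those of Lrp4 and Fam171b. In nuclear proteins there were P325A in Phf21a (P240A in the table), H782R in Zfp804a, E330G in Btbd18 (listed as Gm13718), and C522R, Q499R and S205R in Zfp408. Proteins outside these groups held T319A and I1071M in Itprid2 (listed as Ssfa2), D297E in Arhgap1 (T323S of id30820 in the table), and A619V and N941D in Tnks1bp1. A621T, N619S and R562G lay in Zswim2, and M90I in 1700029I15Rik. R268Q lay in Pex16, which is needed to form peroxisomes, the organelle in which Agps acts.

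In gene lists chosen by textbook role, 29 of 40 listed genes that lie in the stretch held a fixed position. The lists are not complete, and their counts cover only the genes listed. Receptors and adhesion proteins had 6 of 8 (62 positions, 3 residue changes in RefSeq), and transcription and chromatin proteins 7 of 9 (23 positions, 3 residue changes). The former list leaves out the integrin gene Itgav, which held 14 positions, 2 of them residue changes. For RNA processing it was 3 of 3, with P191S and K645Q in the formin-binding protein Fnbp4 (P238S and K692Q in the table) the only residue changes. Fnbp4 is described by its binding to formins, so the list's name may not describe it. This list leaves out the RNA-binding protein gene Rbm45, with 12 positions, and the splicing factor gene Cwc22, without a listed fixed position. The list of secretory pathway and protein folding had 5 of 5, of which Slc43a1, an amino acid transporter, and Pex16 are known for other roles than its name gives. The list of lipid and steroid enzymes had 3 of 3, and these were Cerkl, the cyclic nucleotide phosphodiesterase Pde1a and the protein palmitoyltransferase Zdhhc5, so that its name does not describe the genes counted. Complement, coagulation and granule proteins had 2 of 5, with Serping1 and Tfpi among them and F2 (prothrombin), Prg2 and Prg3 without a listed fixed position. Cilia, sperm and cytoskeleton genes had 2 of 5 and the nuclear pore 1 of 2, Nup35 with 10 positions against none in Nup160. Over all protein-coding genes of the stretch it was 67 of 112.

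The fixed positions were compared with 3341 fixed positions of the other nuclear chromosomes, chosen by the same rule, on 5 properties that the rule did not use. Neighbouring positions are inherited together and are not independent, so that these p-values compare lists of positions. Transitions made up 307 of 424 on chromosome 2 (72.4%, 95% interval 67.9 to 76.6) and 71.0% elsewhere, a difference of 1.38 percentage points (-3.31 to 5.71, two-sided Fisher's exact test, p = 0.57). Amino acid changes made up 120 of 244 coding positions (49.2%) against 50.9% elsewhere, a difference of -1.7 points (-8.29 to 4.92, Fisher's exact p = 0.63). At CpG sites lay 17.2% against 17.0% (0.25 points, -3.3 to 4.32, Fisher's exact p = 0.89). A BLOSUM62 score of 0 or more was seen in 59 of 114 nonsynonymous changes, 51.8% against 53.2% (-1.46 points, -11.08 to 8.06, Fisher's exact p = 0.77). In 3′ UTRs lay 33.7% against 34.8% (-1.08 points, -5.72 to 3.81, Fisher's exact p = 0.7). The adjusted p over the 5 tests was 0.89 for each. Without positions that had another listed position within 100 bp, the 3′ UTR difference was -9.23 points (Fisher's exact test, adjusted p = 0.046). With receptor genes kept it was -14.92 points (adjusted p = 1.9e-16, Fisher's exact test), but chromosome 2 then counted 801 positions in place of 424. That value compares another set of genes, and its p-value does not describe the 424 positions.

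With RefSeq gene models in place of the table's, which was added after the data were seen, 47 of 148 positions in coding exons changed a residue (31.8%, 24.4 to 39.9), against 504 of 1276 elsewhere (39.5%, 36.8 to 42.2). The difference of -7.74 points had an interval from -15.21 to 0.57 (Fisher's exact test, p = 0.075, not adjusted).

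The reads behind the positions were much alike in the 3 lines. Depth was 31 reads at the median in O48 (10 to 300), 32 in ΔDSM-O48-1 (11 to 236) and 31 in ΔDSMD-O48-2 (11 to 251). At 401 of the 424 positions no line had a reference read, at 13 a single line had, at 2 a pair of lines and at 8 all of them. At the median depth of O48, a count of 0 reference reads allows a share of up to 9.68%, and at its lowest depth up to 30%. These limits and all intervals cover counting error only. The genotype was homozygous at 417 positions in each line and at 416 in all 3.

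Slc30a4 stood apart from the other genes. At its 6 positions depth was 249 to 300 reads in O48, 212 to 236 in ΔDSM-O48-1 and 197 to 251 in ΔDSMD-O48-2, and elsewhere no fixed position had more than 56, 59 and 56 reads. Its alternate share was 84.3% to 86.3% in O48, 82.0% to 85.0% in ΔDSM-O48-1 and 82.5% to 86.2% in ΔDSMD-O48-2. Of all 243 reference reads at fixed positions in O48, 233 were at Slc30a4, as were 214 of 230 in ΔDSM-O48-1 and 199 of 212 in ΔDSMD-O48-2. Over all 424 positions reference reads made up 1.66% of reads for O48, 1.54% for ΔDSM-O48-1 and 1.5% for ΔDSMD-O48-2. Without Slc30a4 they made up 0.0766% (0.0367 to 0.141), 0.118% (0.0673 to 0.191) and 0.101% (0.0539 to 0.173). Another 6 positions in the same 3′ UTR had enough reads and were not fixed, with median alternate shares of 21.1%, 20.8% and 22.2% in the same order of lines.

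**Figure D4:**
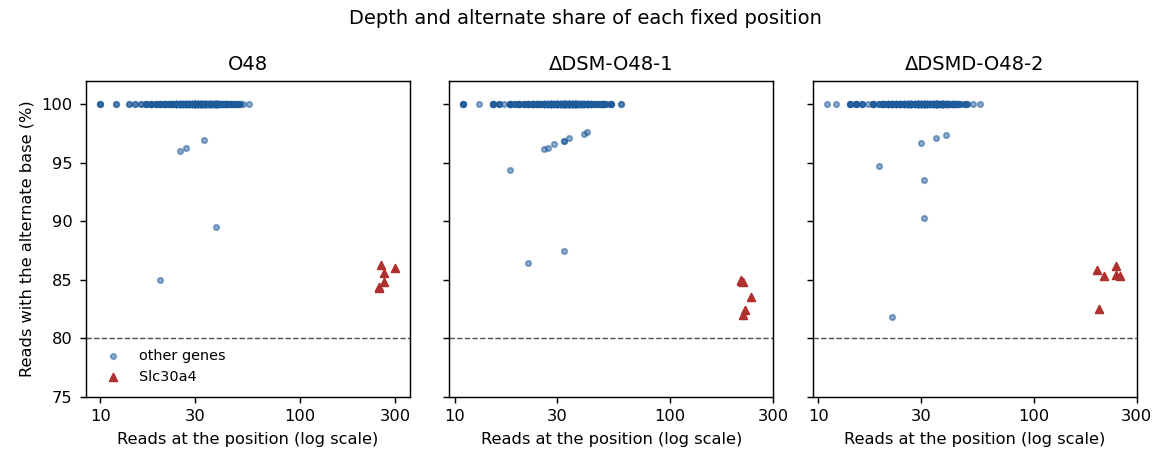
Percentage of reads with the alternate base (vertical axis, from 75%) against reads at the position (log scale) for the 424 fixed positions in each line; the dashed line is the share of 80% used to choose them. The 6 positions of Slc30a4 (red triangles) have 197 to 300 reads and shares of 82.0% to 86.3%, and nearly all other positions (blue) lie at 100% below 60 reads.

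Apart from Slc30a4, 2 positions had reference reads in all 3 lines. Ctnnd1 C84650619T, in the 5′ UTR of the gene of p120 catenin, was on 17 of 20, 17 of 18 and 18 of 22 reads and was the position just inside the threshold (81.8% in ΔDSMD-O48-2). Rbm45 T76383554C, in the 3′ UTR, had 4, 4 and 3 reference reads. The position just outside the threshold was Ncoa3 A166071921C, with 12 of 14, 7 of 10 and 10 of 13 alternate reads. Tspan18 G93203212T, which sets the last limit of the stretch, was on 18 of 18, 19 of 22 and 18 of 19 reads. The fixed position before it, in Slc35c1, lies 0.75 Mb away, so the limit and the lengths measured to it rest on this Tspan18 position.

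Inside the stretch, 37 positions outside receptor genes had enough reads and were not fixed, and all of them were below the share in all 3 lines. Of these 24 were in Ptprj, between 90433328 and 90444498, a range that overlaps that of its own fixed positions. Their median alternate shares were 38.4% for O48, 37.2% for ΔDSM-O48-1 and 33.9% for ΔDSMD-O48-2, while all 10 fixed positions of Ptprj were at 100%. Median depth, cut to whole reads, was 31, 35 and 29 at the former. At the latter the median depth was 32.5, 33.5 and 31.5 reads. The other 13 were 6 in Osbpl6, 4 in Mapk8ip1 and 1 each in Calcrl, Ssrp1 and Kbtbd4.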

How the data were processed

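Whole-genome DNA of 3 haploid ESC lines, 1 library each, was analysed from the table of exonic single-nucleotide variants that the authors deposited. It holds counts of reads at each position, of reference reads and of alternate reads per line, without normalization. Quality scores (Phred scale) and the fraction of alternate alleles among genotypes, both deposited by the authors, were not used for any result, and genotypes only for the counts of homozygous positions. The submitters' processing notes name CASAVA 1.8.2, BWA 0.7.12, SAMtools, Picard, GATK and build mm10. Their roles and the filters are not given in the sources used here.

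The rule was applied in Python 3.11.15 (pandas 2.3.3, numpy 2.4.6), keeping per position the effect of highest impact, then the first listed. The table's reference base matched GRCm38.p6 at 5287 of 5287 positions compared. Codons were read from RefSeq with pysam 0.24.0. Exact Clopper-Pearson intervals were used for shares and Newcombe intervals for differences (scipy 1.17.1, statsmodels 0.14.6), at the 95% level, and BLOSUM62 came from Biopython 1.88. The rule, the block search and Fisher's exact test were tested on simulated data. A count of 0 was given the limit of 3 counts.

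The members, gene lists and tests were chosen with earlier results of these data known. Genes could be named if they held a nonsynonymous, start or stop change, with full reads for start and stop changes and the 12 lowest BLOSUM62 scores (ties by position), the 6 entries with most positions, the ends of blocks, and the extremes of share and depth. Rbm45, Timm10, Clp1 and the genes without fixed positions were named after their values were seen, as were the shared codons. The alternatives were other depths, shares, distances and gaps, homozygous genotypes, O48 alone, receptor genes kept and RefSeq models.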

Additional observations from a re-analysis of the deposited data

How the results depend on the processing

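With receptor genes kept, 801 positions were fixed, 761 of them in a longest block of 13.86 Mb, and 282 changed an amino acid. The 3′ UTR difference then became -14.92 points (Fisher's exact test, adjusted p = 1.9e-16), the CpG difference -2.96 and the difference in BLOSUM62 scores 6.6. Without positions that had another listed position within 100 bp, 202 were left, 101 of them in the longest block and 54 with an amino acid change. The 3′ UTR difference was -9.23 points (Fisher's exact test, adjusted p = 0.046) and the BLOSUM62 difference 9.1. In the main setting the adjusted p for the 3′ UTR was 0.89 (Fisher's exact test). Each adjusted p covers the 5 tests of its own setting and not the settings together. Neighbouring positions are inherited together, so these p-values compare lists of positions. A largest gap of 1 Mb gave a longest block of 4.07 Mb with 157 positions, and 5 Mb gave 17.37 Mb with 408. In the longest block alone the difference in amino acid changes was 1.65 points and that in transitions -0.87, and at 20 reads or more the latter was -0.2. Coding exons of RefSeq, an alternative chosen after seeing the data, left 47 positions with a residue change. The cause of these shifts was not tested, except that fewer or more genes and positions entered by construction. Under other depths and shares, homozygous genotypes or O48 alone, the number of fixed positions stayed between 379 and 434. No paired analysis was possible because each line has 1 library. Depths near 31 reads leave small shares of reference reads undetected.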
